A study of Mus musculus with 6 samples.

Results

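The genes described here are 10 genes of bone morphogenetic protein (BMP) signaling, chosen by symbol from the 25140 genes of the deposited count table: the ligands *Bmp2*, *Bmp4* and *Bmp6*, the receptors *Bmpr1a* and *Bmpr2*, the extracellular modulator *Bmper*, and the inhibitor of DNA binding genes *Id1*, *Id2*, *Id3* and *Id4*. All 10 were found, and all 10 passed the filter on low counts, which kept 14334 genes. The libraries came from primary cardiac fibroblasts of adult C57BL/6 mice at passage 1, the source given by the sample labels. The paper's sequencing methods name cardiac fibroblasts only, and its results section calls the cells mouse embryonic fibroblasts. Per the labels, cells spent 16 h in medium with 1% FBS and were then given vehicle (3 libraries) or 10 ng/ml TGFβ (3 libraries) for 24 h, and no genetic change is named for either group. The paper's methods instead give 24 h at 1% FBS before treatment, kept up during it, for all its experiments. The methods call the 3 libraries of a group biological replicates, but whether these were separate animals or separate cultures is not given in the sources used here, so p-values measure the spread between these libraries. The columns of the table name the group only. Libraries are therefore called A, B and C within each group by column order, which is no label and was not used to pair libraries across groups.

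BMPs are secreted dimers of the TGFβ superfamily that bring together type I receptors, such as BMPR1A, and type II receptors, such as BMPR2. The activated type I receptor phosphorylates SMAD1, SMAD5 and SMAD9, which enter the nucleus with SMAD4, and the *Id* genes are the classic targets switched on there. ID proteins carry a helix-loop-helix without a DNA-binding region, so they hold their partners, the E proteins, away from DNA. TGFβ itself signals mainly through SMAD2 and SMAD3, and in fibroblasts it drives the change to contractile, matrix-secreting myofibroblasts.

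With TGFβ, all 4 *Id* genes and the ligand *Bmp4* fell, *Bmper* rose, and *Bmp2*, *Bmp6*, *Bmpr1a* and *Bmpr2* did not pass the test. Thus 6 of the 10 genes changed at an adjusted p of 0.05 (quasi-likelihood F test of edgeR, p adjusted by the Benjamini-Hochberg method over all genes tested), where 40.7% of all genes tested did. Of these, 5 of the 10 were lower, where 20.1% of all genes tested were lower, and 1 of the 10 was higher, where 20.5% were higher. At an adjusted p of 0.01 the same 6 genes passed, and 25.1% of all genes tested did. In 7 of the 10 genes the libraries of the 2 groups did not overlap (53.3% of all genes tested), with 2 of the 10 higher (27.2%) and 5 of the 10 lower (26.1%) in every TGFβ library. The median log2 fold change of the 10 genes was -0.55, beside -0.0013 over all genes tested.

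**Figure D1:**
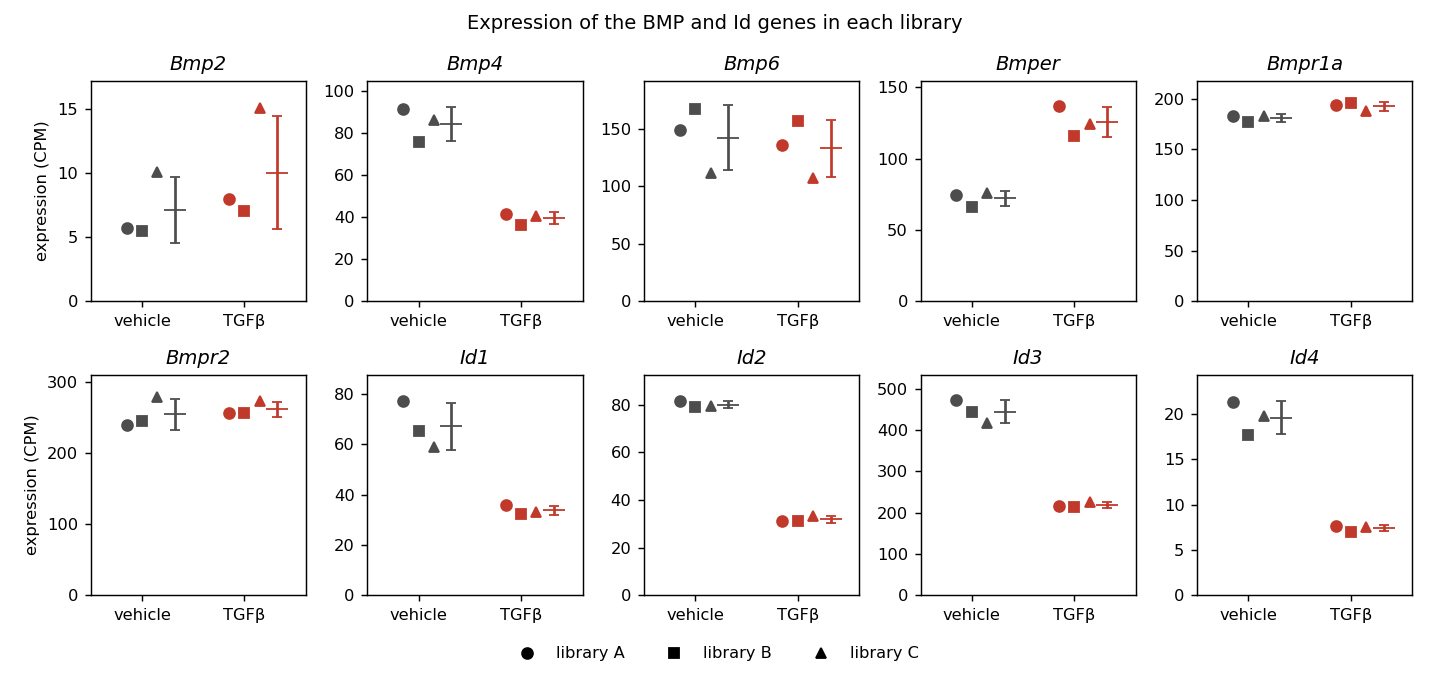
Expression of the 10 genes in CPM (each library's counts scaled to a common total with TMM factors), on linear axes from 0, in the vehicle (grey) and TGFβ (red) libraries; circles, squares and triangles are libraries A, B and C, and the bars give the mean and SD of 3 libraries. The 4 *Id* genes and *Bmp4* lay lower in all TGFβ libraries than in any vehicle library, *Bmper* and, by a small margin, *Bmpr1a* lay higher, and *Bmp2*, *Bmp6* and *Bmpr2* overlapped.

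The libraries held 27851677 to 31072338 counts each. Replicates differed by more than counting noise (mean chi-square per gene of 7.95 to 27.1 over 6 pairs), so no pair was treated as 1 library deposited again. This does not show that they came from separate cultures. As a check of the treatment, *Acta2*, which encodes the smooth muscle actin of myofibroblasts, rose from 1333 ± 144 to 2717 ± 74.1 CPM (SD, n = 3 each; edgeR adjusted p = 6.93e-05). All 8 fibroblast markers were expressed. *Pdgfra*, *Dcn*, *Lum*, *Ddr2*, *Thy1* and *Tcf21* passed the test, all lower with TGFβ, and *Col1a1* and *Col1a2* did not. Markers of other cells were also present. The summed level of 6 endothelial markers ran from 419 to 645 CPM with vehicle and from 383 to 524 CPM with TGFβ, with 0 of 6 called by edgeR. That of 5 mesothelial markers ran from 24.6 to 83.8 and from 16.1 to 41.6 CPM (0 of 5 called), and that of the 6 leukocyte markers from 36.71 to 49.95 and from 34.80 to 50.03 CPM (0 of 4 tested called, *Cd3e* not listed). That of 6 cardiomyocyte markers ran from 38.5 to 59.7 and from 27.4 to 40.6 CPM (0 of 3 tested called), nearly all of it *Tnnt2*, while *Myh6* and *Actn2*, which define these cells, were at most 0.536 CPM. The 6 smooth muscle and pericyte markers summed to 151 to 178 CPM with vehicle and 207 to 260 CPM with TGFβ. Of these, *Cnn1*, *Cspg4* and *Smtn* were called higher. *Myh11* (log2 fold change -0.26, edgeR adjusted p = 0.205), *Rgs5* (0.15, edgeR adjusted p = 0.779) and *Kcnj8* (0.20, edgeR adjusted p = 0.691) did not pass the test. The part of these cells in the results was not tested. In bulk RNA, fewer cells of a type and less RNA per cell cannot be told apart.

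*Id3* was the most abundant of the 10 genes. The gene spans 136143497 to 136145755 on chromosome 4 (plus strand, ENSMUSG00000007872; this and all gene positions below are in GRCm38, also called mm10, by GENCODE M21). It was measured at 473, 444 and 419 CPM in vehicle libraries A, B and C and at 216, 213 and 226 CPM in the TGFβ libraries. The groups lay far apart, and the spread within each was small. *Id3* fell to 49.0% of its vehicle mean, or -1.03 ± 0.06 (SE) as log2 fold change (edgeR adjusted p = 1.40e-05).

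*Id1* (chromosome 2, plus strand, 152736251 to 152737410, ENSMUSG00000042745) is a common readout of BMP receptor activity in many cell types. Its level was 77.4, 65.3 and 58.7 CPM with vehicle and 35.8, 32.3 and 33.2 CPM with TGFβ. The vehicle libraries spread more widely (coefficient of variation 14.1%) than the TGFβ libraries (5.31%), and no vehicle library came near the TGFβ range. *Id1* fell by 0.99 on the log2 scale (SE 0.10, edgeR adjusted p = 0.000216).

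*Id2* (chromosome 12, minus strand, 25093799 to 25097140, ENSMUSG00000020644) was the most even of the 4 within groups under vehicle. It stood at 81.6, 79.0 and 79.5 CPM with vehicle and at 31.04, 30.94 and 33.36 CPM with TGFβ. It fell to 39.7% of the vehicle mean, or -1.33 ± 0.04 (SE) as log2 fold change (edgeR adjusted p = 3.66e-06), the smallest p of the 10 genes.

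*Id4* (chromosome 13, plus strand, 48261228 to 48266026, ENSMUSG00000021379) was the least abundant *Id* gene, with 196 to 679 counts per library. Its values were 21.3, 17.7 and 19.8 CPM with vehicle and 7.68, 7.02 and 7.58 CPM with TGFβ. Again the groups did not overlap. *Id4* fell to 37.9% of the vehicle mean, or -1.40 ± 0.09 (SE) as log2 fold change (edgeR adjusted p = 2.68e-05), the largest fall of the 10 genes, with 2.26% of all genes tested lower still. At its lowest count, counting error alone was 7.14%, beside a coefficient of variation between TGFβ libraries of 4.77%.

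Each *Id* gene therefore fell by more than the spread between replicates, and for each an exact permutation test on CPM, two-sided, gave p = 0.1, the lower limit of that test with 3 libraries per group. Whether the 4 genes fell by the same amount was read from their ratios within each library, where no p could reach 0.05. The log2 ratio of *Id1* to *Id2* was -0.26 ± 0.18 with vehicle and 0.09 ± 0.11 with TGFβ (SD, n = 3 each), a difference of 0.35, and that of *Id3* to *Id4* rose from 4.51 ± 0.13 to 4.88 ± 0.06, a difference of 0.37. For both ratios the groups did not overlap (exact permutation test, p = 0.1, adjusted p = 0.15 over the 6 pairs). Of the 6 pairs of *Id* genes, 4 had ratios that did not overlap between the groups, those that set *Id1* or *Id3* against *Id2* or *Id4*. These 4 pairs combine the same 4 genes, so they are not independent, and no share over other pairs of genes was computed. The pairs *Id1* with *Id3* (a difference of 0.04, exact permutation p = 0.6) and *Id2* with *Id4* (a difference of 0.06, exact permutation p = 0.6) overlapped.

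Levels of different genes were compared per kb of the longest annotated transcript. On this scale the 4 *Id* genes together were at 452 ± 30.1 CPM per kb with vehicle and 218 ± 6.28 CPM per kb with TGFβ (SD, n = 3 each). *Id3* made up 77.1% ± 0.522 of that sum with vehicle and 78.4% ± 0.612 with TGFβ, *Id1* 12.8% ± 0.938 and 13.3% ± 0.735, *Id2* 9.01% ± 0.484 and 7.40% ± 0.151, and *Id4* 1.13% ± 0.0943 and 0.885% ± 0.0290 (SD, n = 3 each). The shares of *Id2* and *Id4* were lower and that of *Id3* higher in all TGFβ libraries than in any vehicle library (exact permutation test, p = 0.1 for each, adjusted p = 0.133 over the 4 genes), while the share of *Id1* overlapped (exact permutation p = 0.4). These shares are parts of the same sum, so they are not independent results. The sum dropped while *Id3* stayed the bulk of it in all 6 libraries.

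**Figure D2:**
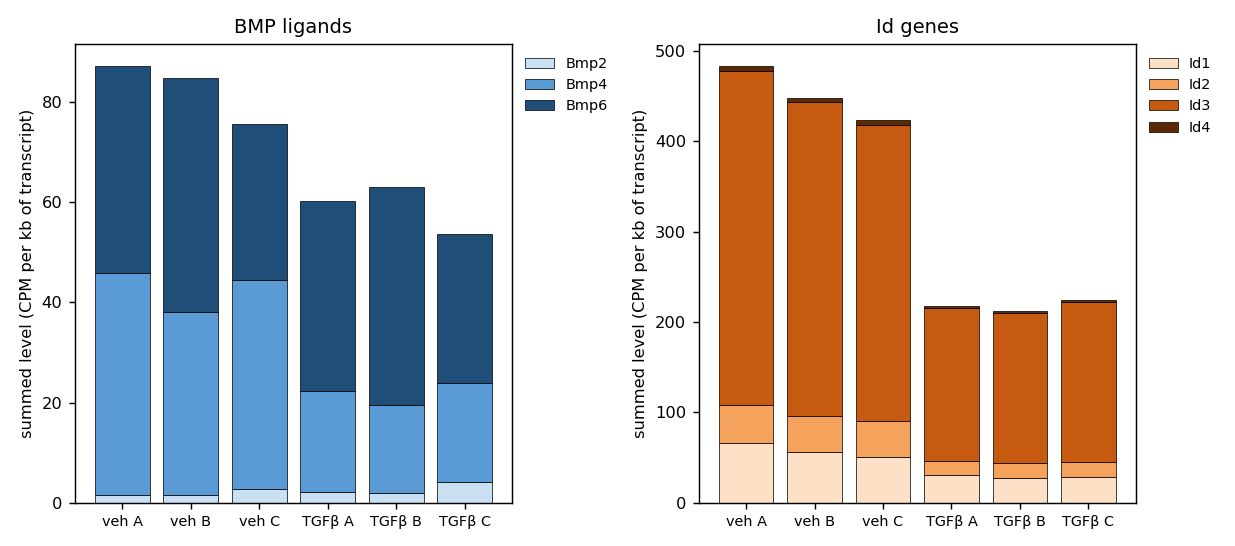
Summed level of the 3 BMP ligands (left) and the 4 *Id* genes (right) in each library, in CPM per kb of the longest transcript, as stacked bars from 0. The *Id* sum was 452 with vehicle and 218 with TGFβ on average with *Id3* as its largest part, and the ligand sum was 82.5 and 59.0, where *Bmp4* shrank and *Bmp6* kept its height.

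The sequences before the *Id* transcription starts are shown because these genes moved together. RefSeq promoter windows (GRCm38.p6), cut here to the 250 bases before the start, were matched for 8 of the 10 genes, all but *Id1* and *Bmp2*. Bases annotated as exon of the same gene in GENCODE M21 are left out, which leaves a stretch of 89 bases for *Id2* and all 250 for *Id4*. The *Id2* stretch lies within the annotated gene but in no exon, as a longer transcript starts further upstream. For *Id3*, whose window is annotated as exon throughout, 30 bases around a SMAD box are given. Each sequence is in the direction of transcription. Capitals mark any match to the motifs searched on both strands. These were GGCGCC (a GC-rich SMAD element), CAGAC (the SMAD box), GTCTAGAC (its palindromic form) and TGACGTCA (the CREB/ATF element). Also searched were the E-boxes CACGTG and CAGCTG. E-boxes are sites of E proteins or of related factors, and no factor was assigned to either motif here. CCAAT was added after the sequences had been read.
Id2, chr12:25096254-25096342, minus strand: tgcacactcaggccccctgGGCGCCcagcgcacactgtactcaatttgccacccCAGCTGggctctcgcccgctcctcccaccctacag
Id3, chr4:136143643-136143672, plus strand: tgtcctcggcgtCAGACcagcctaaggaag
Id4, chr13:48260866-48261115, plus strand: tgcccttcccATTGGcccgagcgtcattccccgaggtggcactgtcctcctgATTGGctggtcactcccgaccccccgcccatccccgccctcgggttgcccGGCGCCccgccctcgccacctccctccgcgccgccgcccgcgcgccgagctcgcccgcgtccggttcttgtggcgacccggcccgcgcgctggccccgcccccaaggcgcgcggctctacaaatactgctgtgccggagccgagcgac

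GGCGCC stood in the windows of *Id2* and *Id4*, and also in those of *Bmpr1a* and *Bmpr2*, which did not pass the test. Of all 32851 promoter windows, 9.59% held it. CAGAC was found at 2 places before *Id3* and at 1 before *Bmp6*, and in 42.2% of all windows. Like that of *Id3*, the windows of *Bmp6* and *Bmpr2* are annotated as exon throughout, and 141 of the 250 bases of the *Bmpr1a* window are exon. CCAAT, on either strand, occurred 3 times before *Id2* (in the bases not printed), 2 times before *Id4* and 1 time before *Bmpr1a*, and in 33.85% of all windows. CAGCTG occurred before *Id2* only among the 8, and in 13.0% of all windows. GTCTAGAC and TGACGTCA, held by 0.167% and 1.55% of all windows, were in none of the 8. The ratio of observed to expected CpG ran from 0.451 (*Bmp4*) to 1.05 (*Id4*) over the 8 windows, all of them above the median of 0.373 over all windows, whether the gene fell, rose or did not pass the test. A match is a run of letters and no evidence of binding.

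Among the ligands, *Bmp4* (chromosome 14, minus strand, 46383520 to 46390669, ENSMUSG00000021835), a ligand needed for mesoderm and heart development, was the one that changed. It was measured at 91.2, 75.4 and 86.0 CPM with vehicle and at 41.6, 36.1 and 40.6 CPM with TGFβ. No TGFβ library reached the vehicle range. *Bmp4* fell to 46.8% of the vehicle mean, or -1.10 ± 0.08 (SE) as log2 fold change (edgeR adjusted p = 5.91e-05). Over the 6 fits that each omit 1 library, it ran from -1.17 to -1.03. The antisense transcript *Gm15222* overlaps it on the opposite strand, with 0.154% as many counts as *Bmp4*. The 250 bases before its start, shown as those of the ligand that fell, held 1 CACGTG, a motif in 6.02% of all windows, and no other motif searched. The window of *Bmp6*, which did not pass the test, held CACGTG too.
Bmp4, chr14:46390670-46390919, minus strand: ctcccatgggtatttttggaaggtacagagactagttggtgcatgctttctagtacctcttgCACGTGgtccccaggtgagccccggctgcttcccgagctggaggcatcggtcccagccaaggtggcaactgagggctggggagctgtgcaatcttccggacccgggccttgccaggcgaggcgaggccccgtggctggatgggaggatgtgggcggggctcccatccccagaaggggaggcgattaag

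*Bmp6* (chromosome 13, plus strand, 38345107 to 38500302, ENSMUSG00000039004), best known for its part in iron balance, was the most counted of the 3 ligands. It had 149, 167 and 111 CPM in vehicle libraries A, B and C and 136, 157 and 107 CPM in the TGFβ libraries. The groups overlapped almost fully, and the spread within groups (coefficients of variation 20.03% and 18.73%) exceeded the gap between them. The log2 fold change was -0.10 (95% interval -0.50 to 0.30, edgeR adjusted p = 0.682). It overlaps *Txndc5* on the opposite strand, which had 482% as many counts and rose (log2 fold change 0.34, edgeR adjusted p = 0.000688). Of the 75-base windows of the longest *Bmp6* transcript, 4.26% were shared with *Txndc5* transcripts on either strand. The library kit keeps strand, but whether counting used it is not given in the sources used here, so the *Bmp6* counts are uncertain to that extent.

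*Bmp2* (chromosome 2, plus strand, 133552159 to 133562885, ENSMUSG00000027358) encodes a ligand that drives bone formation and acts in valve development. It was the least counted of the 10 with vehicle, and had 163 to 430 counts per library over both groups. With TGFβ the mean of *Id4* was lower (7.42 CPM, beside 10.02 CPM for *Bmp2*). *Bmp2* stood at 5.75, 5.50 and 10.1 CPM with vehicle and at 7.97, 7.02 and 15.1 CPM with TGFβ. In each group 1 library, C, lay well above the other two. The log2 fold change was 0.50 with a wide interval (95% interval -0.28 to 1.28, edgeR adjusted p = 0.278). Without vehicle library C it was 0.83 (edgeR adjusted p = 0.089) and without TGFβ library C it was 0.07 (edgeR adjusted p = 0.863). With both left out, *Bmp2* passed the test at a log2 fold change of 0.41 (edgeR adjusted p = 0.0354). That fit was chosen after seeing the data and drops the libraries highest in *Bmp2*. Its smaller spread thus comes from the choice, and no conclusion is drawn from its p.

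The libraries that stood apart in *Bmp2* also stood apart in other readouts. Library C of each group had the highest endothelial marker sum of its group, 0.35 above the vehicle mean and 0.25 above the TGFβ mean on the log2 scale. Each endothelial marker but *Tek* was highest there, and *Tek* was lowest (74.6 CPM with vehicle, 83.8 CPM with TGFβ). The leukocyte marker sum was highest there too, 0.23 above its vehicle mean and 0.24 above its TGFβ mean. In the same libraries *Bmp2* was 0.56 and 0.67 above its group mean and *Bmp6* was 0.33 and 0.30 below it. Library A of each group had the highest mesothelial marker sum (1.03 and 0.83 above the mean) and the highest *Id1* (0.21 and 0.085 above the mean). *Bmp4* (0.119 and 0.080 above the mean) and *Id4* (0.127 and 0.049 above the mean) were also highest in library A of each group. The part of these cells in the levels of *Bmp2*, *Bmp4*, *Bmp6*, *Id1* and *Id4* was not tested. Libraries of the same letter thus deviated in the same direction in *Bmp2*, *Bmp4*, *Bmp6*, *Bmpr2*, *Id1* and *Id4*. The same held for the endothelial and mesothelial sums, which are chosen readouts. In library B, for example, *Bmp4* was -0.155 from its vehicle mean and -0.123 from its TGFβ mean. *Bmpr1a*, *Id2*, *Id3* and *Bmper* did not do so for every letter. *Id3* in library C was -0.087 from its vehicle mean and 0.051 from its TGFβ mean. For *Bmpr1a* in library B these were -0.0334 and 0.0265. Whether libraries of the same letter shared a culture is not given, so the tests here take all libraries as unpaired. Without library C of both groups, *Id1* had a log2 fold change of -1.07 (edgeR adjusted p = 0.000274), and without library A of both, -0.92 (edgeR adjusted p = 0.00184). The 6 calls among the 10 genes were all kept in both fits.

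**Figure D3:**
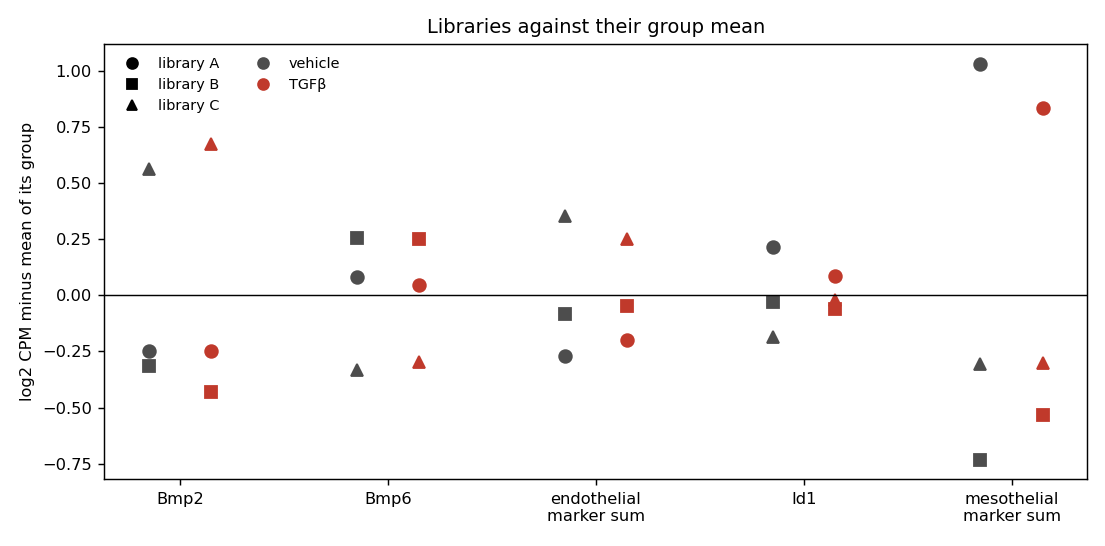
Each library's log2 CPM minus the mean of its group, for *Bmp2*, *Bmp6*, the summed endothelial markers, *Id1* and the summed mesothelial markers; grey is vehicle, red is TGFβ, and shapes give libraries A, B and C. Library C of each group was high in *Bmp2* and the endothelial sum and low in *Bmp6*, and library A was high in the mesothelial sum and *Id1*.

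Per kb of transcript, the sum of *Bmp2*, *Bmp4* and *Bmp6* was 82.5 ± 6.13 CPM per kb with vehicle and 59.0 ± 4.81 with TGFβ (SD, n = 3 each), with no overlap between groups (exact permutation test, p = 0.1). *Bmp4* supplied 49.7% ± 6.08 of it with vehicle and 32.6% ± 4.49 with TGFβ. *Bmp6* supplied 47.8% ± 6.99 and 62.5% ± 6.82, and *Bmp2* 2.48% ± 1.11 and 4.92% ± 2.60. The shares of *Bmp4* and *Bmp6* did not overlap between groups (exact permutation test, p = 0.1 for each, adjusted p = 0.15 over the 3 ligands), and that of *Bmp2* did (exact permutation p = 0.3). Shares are parts of the same sum, so those of *Bmp4* and *Bmp6* are not independent results. The level of *Bmp6* itself did not pass the test. *Bmp4* and *Bmp6* stood about level with vehicle, and *Bmp6* was ahead in each TGFβ library. The fall of the sum is that of 3 chosen ligands. The other BMP ligands listed summed to 529 ± 31.3 CPM with vehicle and 712 ± 10.49 CPM with TGFβ, nearly all of it *Gdf6*, and were higher in every TGFβ library. That sum is in CPM and not per kb, so only its direction, not its size, can be set beside the sum of the 3 ligands.

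*Bmper* (chromosome 9, plus strand, 23223076 to 23485200, ENSMUSG00000031963) encodes a secreted protein that binds BMPs outside the cell and can dampen or aid their signaling depending on its amount. It was the 1 gene of the 10 that rose. Its level was 74.5, 66.1 and 75.9 CPM with vehicle and 137, 116 and 124 CPM with TGFβ, with every TGFβ library above every vehicle library. The log2 fold change was 0.80 (SE 0.08, edgeR adjusted p = 0.000172), and it stayed between 0.73 and 0.85 whichever library was omitted. The log2 ratio of *Bmper* to *Bmp4* counts was -0.22 ± 0.06 with vehicle and 1.67 ± 0.05 with TGFβ (SD, n = 3 each; exact permutation test, p = 0.1), a difference of 1.89 that joins both changes. The 250 bases before its start held none of the motifs searched.

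The receptors were nearly level between the groups. *Bmpr1a* (chromosome 14, minus strand, 34410734 to 34503341, ENSMUSG00000021796), the main type I BMP receptor of mesenchymal cells, was measured at 183, 177 and 183 CPM with vehicle and at 194, 196 and 188 CPM with TGFβ. The TGFβ libraries lay above the vehicle libraries by a small margin. The log2 fold change was 0.09 (95% interval -0.0025 to 0.18, edgeR adjusted p = 0.110) and did not pass the test. *Bmpr2* (chromosome 1, plus strand, 59763400 to 59879014, ENSMUSG00000067336), the type II receptor mutated in familial pulmonary arterial hypertension, had 239, 245 and 280 CPM with vehicle and 256, 256 and 274 CPM with TGFβ. The groups overlapped, and the log2 fold change was 0.04 (95% interval -0.11 to 0.20, edgeR adjusted p = 0.657). Both intervals leave out a change of the size seen in the *Id* genes, whose 95% intervals ended at -0.76 (*Id1*) or below.

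**Figure D4:**
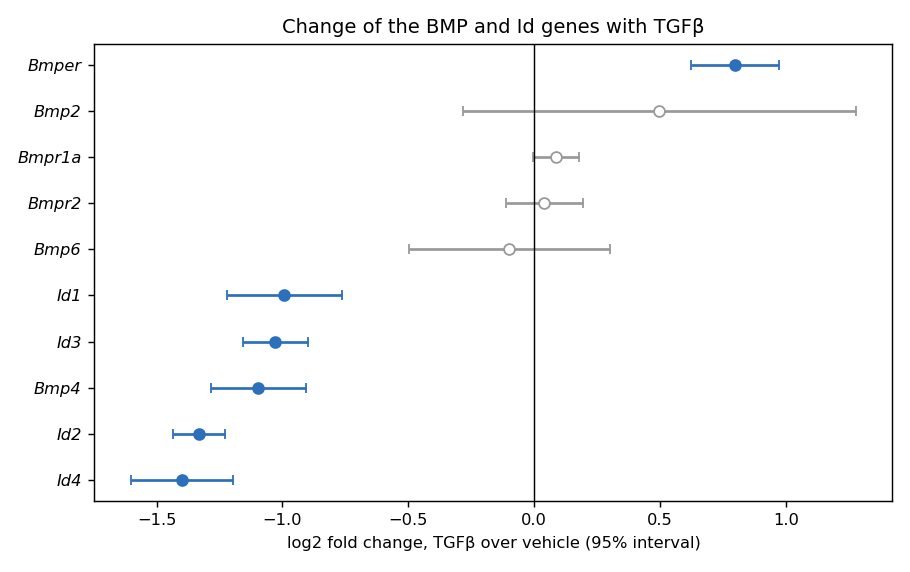
Change with TGFβ, as log2 fold change against vehicle, in the 10 genes, with 95% intervals from edgeR's fit; filled blue points passed the adjusted p of 0.05 and open grey points did not. *Id4*, *Id2*, *Bmp4*, *Id3* and *Id1* lay between -1.40 and -0.99, *Bmper* at 0.80, and the receptors near 0, with *Bmp2* and *Bmp6* spanning wide intervals.

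Ranked by CPM per kb with vehicle, *Id3* came first (348 ± 21.2) and *Id1* second (57.9 ± 8.15), followed by *Bmp4* (40.8 ± 3.90), *Id2* (40.6 ± 0.697) and *Bmp6* (39.7 ± 7.93; SD, n = 3 each), which overlapped. *Bmpr1a* (30.4 ± 0.607) came next, then *Bmpr2* (19.8 ± 1.71) and *Bmper* (19.0 ± 1.40), which overlapped, and *Id4* (5.09 ± 0.474) and *Bmp2* (2.00 ± 0.726) were last. With TGFβ, *Id3* (171 ± 5.45) was still first, followed by *Bmp6* (37.0 ± 6.93), *Bmper* (33.1 ± 2.80) and *Bmpr1a* (32.3 ± 0.720), neighbours that overlapped. *Id1* (29.1 ± 1.54) was apart from both of its neighbours, *Bmpr2* (20.3 ± 0.808) overlapped *Bmp4* (19.1 ± 1.41), and *Id2* (16.1 ± 0.695) was apart. *Bmp2* (2.82 ± 1.24) and *Id4* (1.93 ± 0.0921) closed the order and overlapped. So *Id1*, *Id2* and *Bmp4* moved below the receptor *Bmpr1a* while *Bmper* moved up beside it.

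The pattern most like that of *Id4* over the 6 libraries, by Pearson's r of log2 CPM among 10372 genes with at least 5 CPM on average, was that of *Bmp4* (r = 0.998), followed by *Cebpd* (0.997) and *Ildr2* (0.997). For *Bmper* the closest were *Fam49b*, *Cnn2* and *Metap2* (r = 0.999 each). These r span both groups, so the gap between groups makes up most of each, and they are given as a description.

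Around these genes, the wider BMP pathway did not move as a block. Of 58 further pathway genes, 56 were listed and 44 tested, and 10 rose and 13 fell (52.3% called, beside 40.7% of all genes tested). Of 10 other ligands, 3 were tested. *Gdf6* rose from 516 ± 29.3 to 708 ± 10.3 CPM and *Bmp3* fell from 12.2 ± 1.95 to 2.66 ± 0.592 CPM (SD, n = 3 each), with log2 fold changes of 0.46 (edgeR adjusted p = 0.000435) and -2.20 (edgeR adjusted p = 9.37e-05). BMP3 is a member known to oppose other BMPs. *Bmp7* and *Bmp10* were not listed.

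Of 9 other receptors and co-receptors, 8 were tested, 3 rose and 3 fell, with a median log2 fold change of -0.08. Among all genes tested, 20.5% were higher and 20.1% lower. *Acvr1*, a type I receptor for BMPs, rose from 71.5 ± 4.23 to 88.6 ± 1.30 CPM (log2 fold change 0.31, edgeR adjusted p = 0.00192), and *Bmpr1b* from 1.04 ± 0.360 to 2.81 ± 0.166 CPM (1.43, edgeR adjusted p = 0.00226). *Eng*, a co-receptor, also rose (0.23, edgeR adjusted p = 0.00443). *Acvrl1*, the type I receptor for BMP9 that is strong in endothelium, fell from 277 ± 18.2 to 198 ± 16.3 CPM (-0.48, edgeR adjusted p = 0.00152). The co-receptors *Rgma* (-0.55, edgeR adjusted p = 0.00948) and *Rgmb* (-0.17, edgeR adjusted p = 0.0228) fell too. Both calls were lost without library A of both groups. The *Rgmb* call was also lost without vehicle library A or C or TGFβ library A or B, with DESeq2 and with no filter on low counts.

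The SMADs of the BMP branch, with *Smad4* and *Smad7*, which are shared with TGFβ signaling, either fell or did not pass the test. All 6 were tested, 3 fell and 0 rose by edgeR (20.1% and 20.5% of all genes tested), with a median log2 fold change of -0.17. *Smad9*, the least abundant BMP receptor SMAD, fell from 12.2 ± 0.496 to 4.60 ± 0.764 CPM (SD, n = 3 each), that is -1.41 on the log2 scale (edgeR adjusted p = 9.72e-05). *Smad6*, an inhibitory SMAD that BMPs induce, fell from 143 ± 16.4 to 106 ± 1.12 CPM (-0.43, edgeR adjusted p = 0.00356). *Smad1* fell by 0.23 on the log2 scale (edgeR adjusted p = 0.0164), a call lost without vehicle library B or C or TGFβ library A or B. *Smad5* (-0.11, edgeR adjusted p = 0.0544), *Smad4* (-0.05, edgeR adjusted p = 0.415) and *Smad7* (0.02, edgeR adjusted p = 0.881) did not pass.

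Other genes known to respond to BMP were mixed. Of 15 in the list, 12 were tested, 3 fell and 2 rose, with a median log2 fold change of 0.03. Of all genes tested, 20.1% were lower and 20.5% higher, so these counts are near the share of all genes. *Atoh8*, a transcription factor gene that BMPs induce in endothelium, fell from 154 ± 21.2 to 68.9 ± 5.45 CPM (SD, n = 3 each), that is -1.16 on the log2 scale (edgeR adjusted p = 0.000127). *Hey2* fell by 0.63 on the log2 scale (edgeR adjusted p = 0.00195), as did *Smad6*, which is in both lists. Endothelium also uses these genes, and the endothelial marker sum (mean ± SD, n = 3 each) was 514 ± 117 CPM in vehicle libraries and 444 ± 72.1 in TGFβ libraries, which overlapped, and its part in these falls was not tested. *Runx2*, a bone transcription factor gene, rose by 0.53 (edgeR adjusted p = 0.00058). *Bambi*, a pseudoreceptor that TGFβ also induces, rose from 5.89 ± 0.933 to 7.94 ± 0.265 CPM (0.43, edgeR adjusted p = 0.0249), a call lost without vehicle library B or C or TGFβ library A or B. *Bambi* is counted among the antagonists too.

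Of 18 antagonists and modulators, 15 were tested, 4 rose and 3 fell, with a median log2 fold change of 0.14. These counts are near the shares of all genes tested, 20.5% higher and 20.1% lower. *Fstl3*, which traps activins and some BMPs, rose from 51.9 ± 1.51 to 187 ± 18.1 CPM (1.85, edgeR adjusted p = 5.49e-06). *Fstl1* rose from 3227 ± 276 to 5109 ± 216 CPM (0.66, edgeR adjusted p = 0.000424). *Tll1*, a protease that cuts the antagonist chordin, rose from 3.09 ± 1.37 to 19.1 ± 13.9 CPM (2.62, edgeR adjusted p = 0.00818), and the rise was 1.86 without TGFβ library A. *Chrdl1*, which encodes a chordin-like BMP antagonist, fell from 2.51 ± 0.157 to 0.525 ± 0.208 CPM (-2.25, edgeR adjusted p = 0.000466), *Kcp* from 10.9 ± 2.02 to 5.23 ± 0.997 CPM (-1.06, edgeR adjusted p = 0.00237), and *Twsg1* by 0.33 (edgeR adjusted p = 0.000377). *Nog*, which encodes noggin, was at most 0.66 CPM in any library.

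The E proteins that ID proteins bind differed little beside the *Id* genes. *Tcf4* fell by 0.23 on the log2 scale (216 ± 13.4 to 184 ± 4.50 CPM; SD, n = 3 each; edgeR adjusted p = 0.0102) and *Tcf12* rose by 0.13 (126 ± 1.82 to 138 ± 4.46 CPM, edgeR adjusted p = 0.0351). *Tcf3* did not pass (-0.03, edgeR adjusted p = 0.562). Without library A of both groups the *Tcf4* call was lost. The *Tcf12* call was lost with DESeq2, with upper quartile scaling, with no filter on low counts and without any of vehicle libraries A, B and C or TGFβ libraries A and B.

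**Figure D5:**
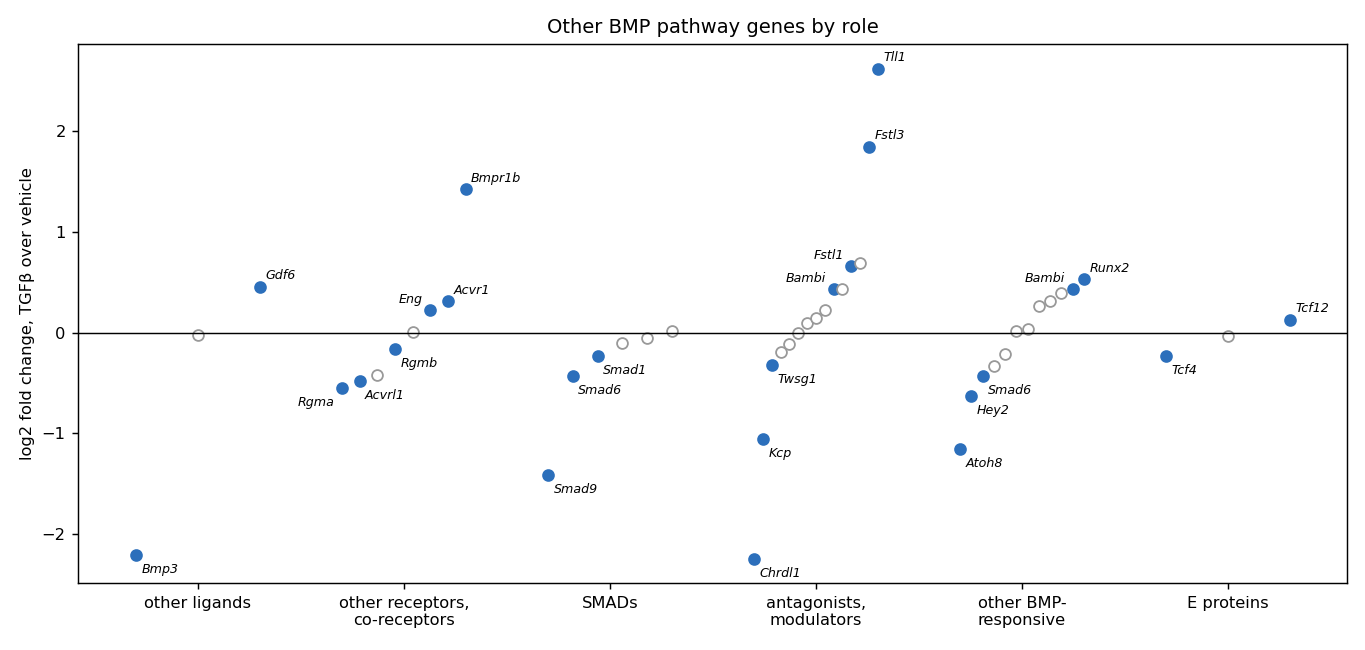
Change with TGFβ, as log2 fold change against vehicle, in the tested genes of the wider BMP pathway, 1 point a gene in 6 role lists (*Smad6*, *Smad7* and *Bambi* appear in 2); filled blue points with names passed the adjusted p of 0.05 and open grey points did not. *Smad9*, *Atoh8*, *Kcp*, *Bmp3* and *Chrdl1* lay below -1 and *Fstl3*, *Tll1* and *Bmpr1b* above 1, while most others lay between.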

How the data were processed

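The authors made stranded poly(A) RNA-seq libraries, aligned single-end reads to mm10, with DESeq2 for their own comparison. Deposited was a table of their raw read count per gene and library, and the aligner, counting tool and annotation are not given in the sources used here. The table's columns of the authors' own means, fold changes and p-values were not used. From the counts, edgeR 4.0.16 (R 4.3.3) gave TMM factors, a filter by filterByExpr, which kept 14334 of 25140 genes, and the quasi-likelihood test of TGFβ against vehicle without covariates, with Benjamini-Hochberg adjustment. Standard errors are the fold change over the square root of F. CPM are counts over TMM-scaled library sizes, and a kb level uses the longest GENCODE M21 transcript. The steps were run on simulated counts, where far fewer genes changed than here and every gene had the same spread beyond counting noise. That run therefore does not give the rate of false calls in these data. Reads of 75 bases shared with other genes made up at most 4.26% of windows (*Bmp6*). The pathway lists and named genes (up to 4 called per list with at least 1 CPM, and those a count needs) and the alternatives (DESeq2 1.42.0, limma-voom with limma 3.58.1, 2 scalings, 2 filters, libraries left out) were set with earlier results of these data known. Totals of 27851677 to 31072338 counts per library set the precision, and intervals cover the spread between libraries. *Acta2* and *Postn* were treatment checks, with log2 fold changes of 1.03 and 1.55, and a further check is not reported here.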

Additional observations from a re-analysis of the deposited data

How the results depend on the processing

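The *Id* genes, *Bmp4* and *Bmper* kept their direction and their call under DESeq2, limma-voom, both other scalings, both other filters and with each library left out, so that 6 of the 10 genes changed throughout. With each library left out, the log2 fold change ran from -1.08 to -0.88 for *Id1*, -1.38 to -1.32 for *Id2*, -1.07 to -0.98 for *Id3* and -1.47 to -1.34 for *Id4*. It ran from -0.25 to 0.034 for *Bmp6* and from -0.0026 to 0.11 for *Bmpr2*, whose signs are thus not settled. The number of changed genes was 5828, 3595 at an adjusted p of 0.01, and 4489 to 5481 with each library left out. 2 alternatives were chosen after seeing the data. Without the library of each group with the highest mesothelial marker sum, 3775 genes changed, of the E proteins 0 by edgeR (3 had been tested), and without that with the highest endothelial sum *Bmp2* passed at 0.41, which makes 7 of the 10. The E protein calls, 2 in all, were 1 with DESeq2, upper quartile scaling, no filter or without the library of highest endothelial sum, and 1 to 2 with each library left out. No paired analysis was possible because the columns carry no replicate number. Column order was not taken as one, and a shared culture was not tested. Even so, libraries in the same place of each group deviated alike in *Bmp2*, *Bmp4*, *Bmp6*, *Bmpr2*, *Id1*, *Id4* and the endothelial and mesothelial sums. In *Bmpr1a*, *Id2*, *Id3* and *Bmper* they did not do so for every place.

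Positions in the order per kb rest on small gaps. With the length of all exons joined, *Bmp6* was in position 4, *Id2* 5, *Bmper* 7 and *Bmpr2* 8 with vehicle, and *Bmpr1a* 3, *Id1* 4, *Bmper* 5, *Bmp4* 6 and *Bmpr2* 7 with TGFβ. With each library left out, *Bmp4* and *Bmp6* ranged over positions 3 to 5 and *Id2* over 3 to 4 with vehicle, and *Bmp6* over 2 to 3, *Bmpr1a* over 3 to 4 and *Bmper* over 2 to 4 with TGFβ. The direction of each share of the *Id* and ligand sums was the same under these settings. The cause of these shifts was not tested.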
